A study of Homo sapiens with 6 samples.

Results

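The genes examined were YAP1 and WWTR1, which encode the transcriptional co-activators YAP and TAZ, the 4 genes of the TEAD DNA-binding factors, TEAD1 to TEAD4, and 4 of their target genes, CYR61, CTGF, AMOTL2 and ANKRD1. They were looked up by name among 16500 distinct gene names in the deposited lists, and all 10 could be assigned a call. CYR61 and CTGF are now called CCN1 and CCN2. The symbol TAZ belonged to tafazzin, another gene, in older annotation and was not used. The calls came from chromatin immunoprecipitation and sequencing (ChIP-seq) of H3K4me3, trimethylated lysine 4 of histone H3, which marks active promoters. The cells were BE(2)-C, an established human neuroblastoma line with amplified MYCN, subcloned from a single parental line. They were treated for 24 hours with WDR5 siRNA-1, a single siRNA against a shared scaffold of the enzymes that methylate H3K4, or with control siRNA. Each siRNA had 1 H3K4me3 library, 1 IgG library and 1 input library, and the calls come from the 2 H3K4me3 libraries.

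YAP and TAZ are the nuclear effectors of the Hippo pathway. Its MST kinases activate the LATS kinases, which phosphorylate YAP and TAZ and so favour their retention in the cytoplasm. Once in the nucleus they bind TEAD factors on DNA, since neither has a DNA-binding domain of its own, and switch on genes of matrix, cytoskeleton and growth control. In neuroblastoma, YAP and TAZ activity is associated with the mesenchymal rather than the adrenergic cell state.

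The deposited peak lists name each gene that had a peak of H3K4me3 no more than 1 kb from its transcription start site (TSS). They held 11870 distinct names with WDR5 siRNA and 13618 with control siRNA. No height, read number or depth accompanied a call, and with 1 library per siRNA there is no replicate error and no test. A name missing from a list is therefore a missing call at an unknown depth and does not show that the mark was absent. Of 8 adrenergic neuroblastoma markers, 6 were listed with WDR5 siRNA and 8 with control siRNA. TH and DBH, which encode enzymes of catecholamine synthesis, were the pair listed only with control siRNA. That is 25% of the 8 (exact 95% interval over genes 3.19 to 65.1%), an interval that includes the 13.5% of all names with a control peak that were listed only there.

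Of the 10 genes, 4 were listed with WDR5 siRNA and 8 with control siRNA. Both co-activator genes and a pair of targets lost the call, while the 3 TEAD genes called with control siRNA kept it. Most names with a control peak also kept it (11773 of 13618). For the share listed only with control siRNA, the exact 95% interval was 0 to 70.8% for these 3 TEAD genes. It was 15.8 to 100% for the 2 co-activator genes. The intervals overlap, so no difference between these groups is read from the counts. Listed only with control siRNA, here termed control-only, were YAP1, WWTR1, CYR61 and AMOTL2. Listed in both were TEAD1, TEAD3, TEAD4 and CTGF. TEAD2 and ANKRD1 were in neither list, and none of the 10 was listed only with WDR5 siRNA. The control-only share was thus 4 of 8 genes with a control peak, or 50% (exact 95% interval over genes 15.7 to 84.3%). Over all names with a control peak it was 13.5% (1845 of 13618, interval 13.0 to 14.1%). In the reverse direction, 0.817% of the names listed with WDR5 siRNA (97 of 11870) were WDR5-siRNA-only. The intervals count each gene as an independent draw and leave out library and replicate error. The 10 genes were chosen with earlier results of these data known, so their share and interval are descriptive only. Among genes in the promoter tables the share was 33.3%, beside 11.6% of all names in those tables with a control peak.

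**Figure D1:**
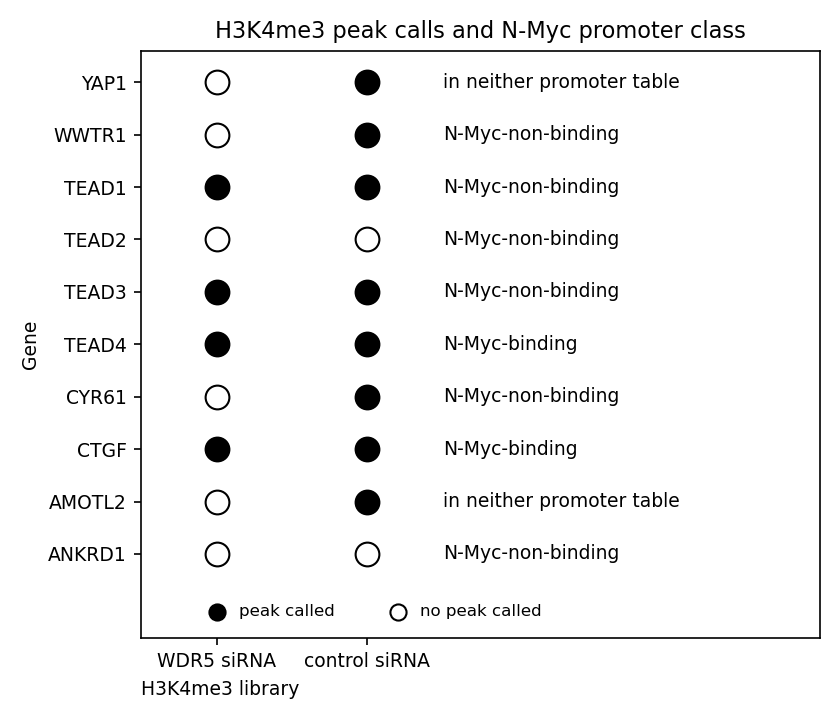
H3K4me3 peak calls for the 10 genes, one gene per line, with the WDR5 siRNA library in the left column and the control siRNA library in the right column. Filled circles mark a called peak and open circles mark none, and the text gives the promoter table that holds the gene. YAP1, WWTR1, CYR61 and AMOTL2 are filled in the control siRNA column only.

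YAP1 and WWTR1 are paralogs that bind the same TEAD factors. YAP1 had no row in the WDR5 siRNA list and 1 row in the control list. WWTR1 likewise had no row with WDR5 siRNA and 1 row with control siRNA. The names on either side of YAP1 in the control list, which runs in genome order, were C11orf70 and BIRC3, and both were listed in both libraries. The missing YAP1 call thus stood between neighbours that kept theirs. On either side of WWTR1 stood AK309441 and WWTR1-AS1, the antisense transcript, and both of these were control-only. The promoters of WWTR1 and its antisense gene could share 1 peak, and the lists do not tell their peaks apart.

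The TEAD genes encode the proteins that carry YAP and TAZ to DNA. TEAD1 (TSS at hg19 chromosome 11, position 12695969), TEAD3 (chromosome 6, position 35464861) and TEAD4 (chromosome 12, position 3068478) each had 1 row with WDR5 siRNA and 1 row with control siRNA. TEAD2 (chromosome 19, position 49865714) had no row in either list. The TSS of DKKL1 lay 1328 bp from that of TEAD2, and DKKL1 was in neither list too. It was the only other TSS of the promoter tables within 10 kb of any of the 8 genes with a tabulated TSS. Of the 6 names flanking TEAD1, TEAD3 and TEAD4 in the control list, RASSF10, beside TEAD1, was control-only, and PARVA, RPL10A, FKBP5, TULP3 and TSPAN9 were listed in both.

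The target genes were split. CYR61 (chromosome 1, position 86046444) and CTGF (chromosome 6, position 132272518) encode related secreted matricellular proteins and are standard readouts of YAP activity. CYR61 had no row with WDR5 siRNA and 1 row with control siRNA, whereas CTGF had 1 row in each. AMOTL2, an angiomotin-family gene whose product binds YAP and restrains it, had no row with WDR5 siRNA and 1 row with control siRNA. ANKRD1 (chromosome 10, position 92681032), a cardiac ankyrin repeat gene, was in neither list. The names flanking CYR61 (DDAH1 and ZNHIT6) and AMOTL2 (RYK and ANAPC13) were listed in both. Beside CTGF, ENPP1 was listed in both and MOXD1 was control-only. Over all flanking names, 2 of 8 beside the control-only genes and 2 of 8 beside the genes listed in both were control-only. Both of the former stood beside WWTR1. Over all names with a control peak the share was 13.5%.

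The promoters are shown so that genes with different calls can be compared in sequence, although the calls were joined by name and not tied to these start sites. RefSeq promoter windows (GRCh38.p14, 250 bases before to 50 after a start, 300 in all) matched 7 of the 10 genes, and CYR61, TEAD1 and TEAD4 had no entry. WWTR1, AMOTL2 and TEAD2 had more than 1 window, and the window with the highest CpG ratio was taken. Each is printed 5′ to 3′ on the gene's strand. Capitals mark GGAATG or its reverse complement CATTCC, the core of the TEAD motif, and CACGTG, the E-box that MYC family proteins bind, searched on both strands with no overlaps found. YAP1 lies at chr11:102110197-102110496 (plus strand), WWTR1 at chr3:149657976-149658275, AMOTL2 at chr3:134374398-134374697, CTGF at chr6:131951323-131951622, TEAD3 at chr6:35497030-35497329 and ANKRD1 at chr10:90921038-90921337 (all minus strand). The first 3 are control-only, CTGF and TEAD3 are listed in both, and ANKRD1 is in neither list.
YAP1: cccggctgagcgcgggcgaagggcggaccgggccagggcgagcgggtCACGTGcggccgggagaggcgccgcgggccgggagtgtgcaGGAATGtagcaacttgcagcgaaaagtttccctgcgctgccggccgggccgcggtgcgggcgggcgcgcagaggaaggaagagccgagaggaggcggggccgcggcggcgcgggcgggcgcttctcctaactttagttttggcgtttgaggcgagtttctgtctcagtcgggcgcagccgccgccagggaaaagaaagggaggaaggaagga
WWTR1: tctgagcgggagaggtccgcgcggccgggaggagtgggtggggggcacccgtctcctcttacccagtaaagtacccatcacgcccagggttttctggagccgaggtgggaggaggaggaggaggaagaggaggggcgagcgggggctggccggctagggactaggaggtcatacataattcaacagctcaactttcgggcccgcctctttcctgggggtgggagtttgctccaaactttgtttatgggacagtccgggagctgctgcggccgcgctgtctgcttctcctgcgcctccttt
AMOTL2: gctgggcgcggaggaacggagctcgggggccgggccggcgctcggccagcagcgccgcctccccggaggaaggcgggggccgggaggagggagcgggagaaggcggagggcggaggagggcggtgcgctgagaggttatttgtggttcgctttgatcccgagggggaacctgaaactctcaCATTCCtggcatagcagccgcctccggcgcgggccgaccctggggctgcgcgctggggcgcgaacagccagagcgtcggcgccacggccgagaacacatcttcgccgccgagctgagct
CTGF: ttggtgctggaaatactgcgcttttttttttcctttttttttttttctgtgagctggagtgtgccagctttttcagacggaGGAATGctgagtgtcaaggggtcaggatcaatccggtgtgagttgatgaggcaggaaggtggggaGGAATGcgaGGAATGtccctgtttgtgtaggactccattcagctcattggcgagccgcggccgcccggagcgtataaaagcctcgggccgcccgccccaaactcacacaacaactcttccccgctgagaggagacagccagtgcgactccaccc
TEAD3: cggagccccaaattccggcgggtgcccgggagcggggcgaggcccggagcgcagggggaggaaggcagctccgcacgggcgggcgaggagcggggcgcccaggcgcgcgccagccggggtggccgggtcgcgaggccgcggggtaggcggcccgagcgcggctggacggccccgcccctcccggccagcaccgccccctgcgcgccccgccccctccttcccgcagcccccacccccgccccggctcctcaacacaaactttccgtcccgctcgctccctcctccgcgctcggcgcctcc
ANKRD1: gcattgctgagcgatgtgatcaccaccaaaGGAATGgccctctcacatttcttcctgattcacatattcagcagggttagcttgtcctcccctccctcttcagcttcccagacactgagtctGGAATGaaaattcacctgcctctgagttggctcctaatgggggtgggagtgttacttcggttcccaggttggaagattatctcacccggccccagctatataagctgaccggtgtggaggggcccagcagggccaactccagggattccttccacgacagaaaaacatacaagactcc

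The TEAD core occurred in promoters of all 3 call patterns. The CTGF window held it 3 times, beginning 169, 104 and 95 bases before the start, and of 35116 RefSeq windows 45 (0.128%) held 3 or more. ANKRD1 held it 2 times, 220 and 128 bases before the start. AMOTL2 held it once, as CATTCC, 69 bases before the start, and YAP1 held it once, 162 bases before the start. None was found in the printed WWTR1 and TEAD3 windows or in that of TEAD2. At least 1 copy was present in 14.0% of all RefSeq windows, of which a gene can have more than 1. With 1 window per name, chosen by highest CpG ratio as for the 7 genes, the share differed by call. It was 9.22% for names listed in both, 11.6% for control-only names and 14.5% for unlisted names. The E-box occurred once among the 7 genes, 203 bases before the start of YAP1, and in 7.26% of all windows. With 1 window per name it occurred in 10.7% of names listed in both, 8.29% of control-only names and 5.07% of unlisted names. A match describes these letters and shows no binding.

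CpG dinucleotides, which are dense at most promoters that carry H3K4me3, were sparsest in ANKRD1 among the 7 windows taken. The CpG observed/expected ratio compares the CpG count with that expected from the C and G content. Among the control-only genes it was 1.15 for YAP1, 0.967 for AMOTL2 and 0.626 for WWTR1. Among the genes listed in both it was 0.897 for TEAD3 and 0.683 for CTGF, so the ranges of these groups overlapped. It was 0.748 for TEAD2 and 0.243 for ANKRD1, which were in neither list. Over all names with a matched window, the median was 0.884 for 9157 names listed in both, 0.794 for 1231 control-only names and 0.340 for 2152 names in neither list. YAP1 and AMOTL2, both control-only, thus lay above the median of names listed in both, whereas ANKRD1 lay below the median of unlisted names. TEAD2, unlisted, lay above the upper quartile of unlisted names (0.704). The other RefSeq windows had ratios of 0.0458 for AMOTL2, 0.098 for WWTR1 and 0.427 for TEAD2, and which start carried the called peak is unknown.

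**Figure D2:**
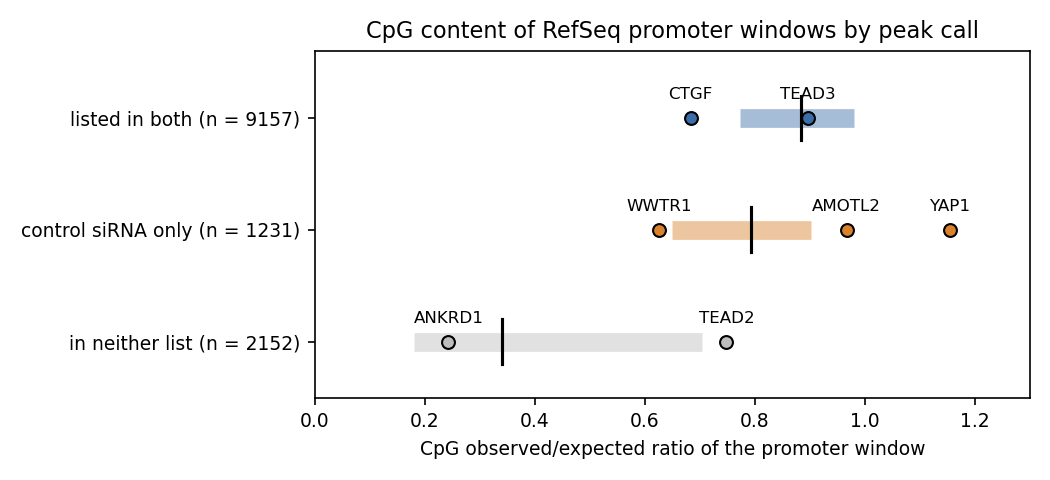
CpG observed/expected ratio of the RefSeq promoter window (horizontal axis, no unit) by peak call. Points are the 7 matched genes, and bars and ticks are the quartile range and median over all matched names with that call. YAP1, at 1.15, lies to the right of the control-only bar, and ANKRD1, at 0.243, lies left of the unlisted median.

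The study divided promoters by N-Myc binding, N-Myc being the MYC-family factor encoded by MYCN. Of the 10 genes, 8 were in one of the 2 promoter tables, and YAP1 and AMOTL2 were in neither. TEAD4 and CTGF were N-Myc-binding promoters, 2 of 8 (25%), against 33.9% of all promoters in the tables (3254 of 9585). WWTR1, TEAD1, TEAD2, TEAD3, CYR61 and ANKRD1 were N-Myc-non-binding. Both N-Myc-binding genes were listed in both libraries, in a class where 4.18% of promoters with a control peak were control-only. Of the 4 non-binding genes with a control peak, WWTR1 and CYR61 were control-only, in a class where 17.9% were.

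What the order of rows in the promoter tables stands for is not stated in their headers, but promoters with different calls occupied different parts of it. The tables are titled as H3K4me3 quantifications, so their order may not be independent of the calls. In the non-binding table TEAD3 held row 1037 of 6331 (16.4% of the table length) and TEAD1 row 1077 (17.0%). The median for the 3019 promoters listed in both there was 23.9%. All 200 rows within 100 rows of TEAD1 were listed in both, as were all 200 around TEAD3. CYR61 held row 3421 (54.0%), close to the 51.5% median of the 656 control-only promoters, and 140 of the 200 rows around it were control-only. Control-only was thus the commonest call in the rows around CYR61. Whether its row position bears on its call was not tested.

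WWTR1 stood differently. It held row 2252 (35.6%), ahead of the lower quartile of control-only promoters (46.8%) and just inside the upper quartile of promoters listed in both (36.0%). Of the 200 rows around it, 189 were listed in both and 11 (5.50%) were control-only. Among the unlisted genes, ANKRD1 held row 4839 (76.4%), near the 78.4% median of unlisted promoters, with 196 of the 200 rows around it unlisted. TEAD2 held row 3655 (57.7%), where the rows around it comprised 103 unlisted, 83 control-only, 9 listed in both and 5 WDR5-siRNA-only promoters.

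In the N-Myc-binding table TEAD4 held row 2864 of 3254 (88.0%) and CTGF row 2943 (90.4%). Promoters listed in both there had a median of 45.6% and an upper quartile of 68.3%, whereas the 129 control-only promoters had a median of 90.3%. TEAD4 and CTGF thus carried calls in both libraries at positions typical of control-only promoters. Even so, most of their neighbouring rows were also listed in both, 151 of 200 around TEAD4 and 126 of 200 around CTGF, with 47 and 71 control-only.

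**Figure D3:**
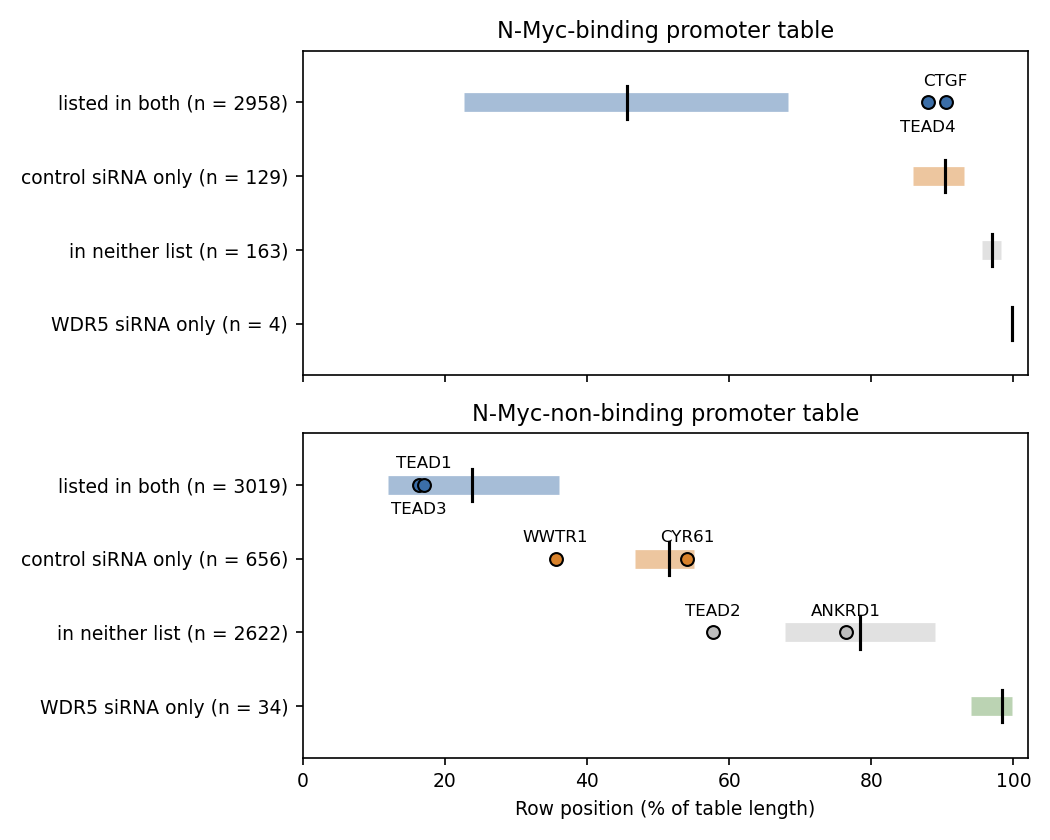
Row position of each gene as a percentage of the table length (horizontal axis) in the N-Myc-binding table (upper panel) and the N-Myc-non-binding table (lower panel), by peak call. Points are the genes, and bars and ticks are the quartile range and median over all promoters with that call. WWTR1, at 35.6%, lies left of the control-only bar, while CYR61 lies inside it and TEAD4 and CTGF lie far right of the bar for promoters listed in both.

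Most Hippo pathway genes outside the 10 were listed in both libraries, as were most names with a control peak (11773 of 13618). Of 45 genes, 35 were listed with WDR5 siRNA and 40 with control siRNA. Of these 40, 5 were control-only (12.5%, interval 4.19 to 26.8%, against the 13.5% of all names). The 45 include 4 vestigial-like genes, which encode TEAD partners, and 2 of the 5 control-only genes are among these. The core kinase cassette had 6 of 7 genes listed in both, among them STK3 and STK4, which encode the MST kinases, LATS1, the adaptor SAV1 and the LATS co-activators MOB1A and MOB1B. The remaining gene, LATS2 (chromosome 13, position 21635722), was control-only. It encodes a kinase that phosphorylates YAP and is itself a YAP target. The control-only share of the cassette was thus 14.3% (interval 0.361 to 57.9%), beside the 13.5% of all names. All 10 TAO and MAP4K kinase genes, which act on the cassette in parallel to MST, were listed in both.

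The remaining control-only Hippo genes were WWC1 and WWC3 among the membrane scaffolds and VGLL2 and VGLL3 among the vestigial-like genes. WWC1 encodes KIBRA, which activates the cassette together with the NF2 product, and NF2, WWC2 and FRMD6 were listed in both. Vestigial-like proteins bind TEAD factors in competition with YAP and TAZ. Of the 4 such genes, VGLL4 was listed in both and VGLL1 in neither list. All 8 listed genes for polarity proteins, striatins, casein kinases and the degradation adaptor BTRC were listed in both, as were the 4 listed junction partners AMOTL1, PTPN14, AJUBA and LIMD1. The atypical cadherin genes DCHS1, FAT1 and FAT4 were listed in both. AMOT, WTIP, DCHS2 and RASSF1 were in neither list. These role groups were drawn up after the calls had been seen.

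Further YAP and TAZ targets, outside the 10 genes, were listed in both libraries in 13 of 25 cases. With WDR5 siRNA 13 were listed and with control siRNA 18. Only 17 of the 25 were among the 9585 tabulated promoters, so the counts differ in base. Of those 9585 promoters, 5977 were listed in both, 6015 with WDR5 siRNA and 6762 with control siRNA. The 5 control-only genes made up 27.8% of the 18 (interval 9.69 to 53.5%), an interval that includes the 13.5% of all names. They were AXL, a receptor tyrosine kinase gene, CRIM1, a BMP-binding transmembrane protein gene, IGFBP3, an IGF-binding protein gene, NUAK2, an AMPK-related kinase gene, and LATS2, which stands in both lists. IGFBP3 was an N-Myc-binding promoter and the other 4 were non-binding. Listed in both were, among others, F3, GADD45A, GADD45B, FJX1, ARHGEF17 and BIRC5. Among those in neither list were MYOF, FOXF2, AREG, THBS1, EDN1 and TAGLN. LATS2 held row 3402 (53.7%) of the non-binding table, 19 rows ahead of CYR61, in a stretch where control-only was the commonest call. The control-only markers COL1A1 (row 3415) and TH (row 3449) lay in the same stretch, so this closeness is not particular to YAP targets.

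**Figure D4:**
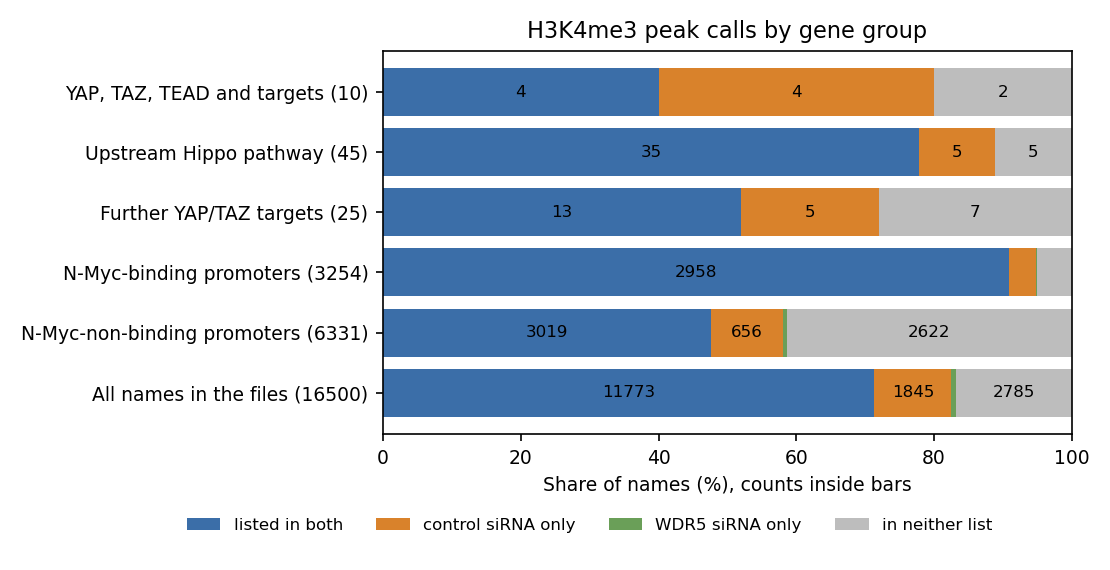
Share of names (horizontal axis, %) by peak call for the 10 genes, the 2 pathway lists, both promoter classes and all names in the files, with counts inside the bars and the number of names in parentheses. Of the 10 genes 4 are control-only, against 5 of 45 Hippo pathway genes (drawn as upstream, vestigial-like genes included) and 5 of 25 further targets. A name can be in neither list among all names only through the promoter tables.

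Of 8 family relatives of the targets, 6 were in neither list. Only 5 of the 8 were in the promoter tables, where 2785 of 9585 promoters were in neither list. WISP3, ANKRD2 and ANKRD23 were in none of the lists or tables, so the counts differ in base. With 2 relatives called in the control library, no share is read from them. Among the other CCN genes, NOV was control-only and WISP1, WISP2 and WISP3 were in neither list. Of the angiomotin family, AMOTL1 was listed in both and AMOT in neither, beside the control-only AMOTL2. ANKRD2 and ANKRD23, muscle ankyrin repeat relatives of ANKRD1, were in neither list.

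Of 21 mesenchymal, Schwann, endothelial and epithelial markers, 2 were listed with WDR5 siRNA and 5 with control siRNA. Only 15 of the 21 were among the 9585 tabulated promoters, of which 6015 were listed with WDR5 siRNA and 6762 with control siRNA. The control-only share of the 5 markers with a control peak was 60% (3 of 5, interval 14.7 to 94.7%), beside 50% of the 8 genes and 13.5% of all names. These 5 pool different cell types, 3 being mesenchymal, 1 Schwann and 1 epithelial, so their share is descriptive only. Of the 8 mesenchymal markers, THY1 was listed in both, COL1A1 and PDGFRB were control-only, and COL1A2, COL3A1, DCN, LUM and PRRX1 were in neither list. Of the others, ERBB3, a Schwann cell marker, was listed in both and KRT18, an epithelial keratin gene, was control-only. The Schwann marker SOX10 and all 4 endothelial markers were in neither list. Their part in the calls of YAP1, WWTR1, CYR61 and AMOTL2 was not tested.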

How the data were processed

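The 6 ChIP-seq libraries comprise 2 H3K4me3, 2 IgG and 2 input libraries. Per the submitters' processing notes, BWA 0.7.12 and bedtools were used on hg19. Not given in the sources used here are the peak caller, its settings and the way N-Myc binding was decided. The authors deposited, per the file headers, lists of gene names with a peak and promoter tables with a 1 bp TSS interval and a name. They hold no counts, levels or other measured unit, so depth is unknown. The IgG and input libraries were not analysed here. The TSS position is the second coordinate of the interval, counted from 1.

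Repeated names were counted once per list (13712 rows with control siRNA, 11942 with WDR5 siRNA) and joined to the tables by name, so a peak at another TSS of a gene can count for it. Of 16500 names, 15689 matched a RefSeq symbol or unambiguous synonym and 12597 a promoter window. Shares carry exact (Clopper-Pearson) 95% intervals, and no test was run. The members, lists and alternatives were chosen with earlier results of these data known. Every listed gene called in 1 library only is named, and the others are counted with examples. The call assignment code was run on simulated lists built from known calls, which does not check name matching or the choice of TSS. Software was Python 3.11.15 with scipy 1.17.1 for intervals, pandas 2.3.3 and numpy 2.4.6 for tables and matplotlib 3.10.9 for plots.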

Additional observations from a re-analysis of the deposited data

How the results depend on the processing

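The control-only share of the 10 genes, 50% of those with a control peak, stayed at 50% with single-row names or current symbols. It was 33.3% with genes in the promoter tables (2 of 6), 40.0% over all 10 genes, 80.0% without TEAD1 to TEAD4 and 40.0% without the 4 target genes. It was 42.9% without WWTR1, a setting chosen after the data were seen. The Hippo pathway share ran between 8.70 and 12.5%, and the share of further targets between 20.0 and 38.5%. The share over all names was 11.6% with names in the promoter tables and 11.2% over all names, listed or not. Among promoters with a control peak, 2 of 6 genes were N-Myc-binding (33.3%), and WWTR1 stood at 61.3% and CYR61 at 92.7% of the non-binding order. The first RefSeq window gave CpG ratios of 0.098 for WWTR1 and 0.0458 for AMOTL2. Within 50 kb there were 5 other tabulated start sites, against 1 within 10 kb. A stricter peak threshold could not be run, because the lists hold no level. No paired analysis was possible because each siRNA has 1 H3K4me3 library, and none could be left out. Depth is unknown, so a call kept in both libraries does not show an equal level.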
